A study of Mus musculus with 125 samples.

Results

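Sox7, Sox17 and Sox18 are the SoxF transcription factors, 3 of the 27998 genes counted in the single-cell matrices and 3 of the 21887 protein-coding genes whose surroundings were scored for open chromatin. They were taken by symbol, and all 3 were present in both kinds of data. In the single-cell data they were read as unique molecular identifiers (UMIs, each a captured RNA molecule) in endothelial barcodes, meaning barcodes with at least 200 genes, at most 10% mitochondrial UMIs and at least 3 of Cdh5, Pecam1, Egfl7, Esam, Tie1 and Kdr detected. In the ATAC-seq data, which marks open chromatin, they were read as the peaks that overlap each gene or lie within 50 kb of it. These peaks merged into 92 regions, 37 at Sox7, 29 at Sox17 and 26 at Sox18.

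SoxF proteins bind DNA through a high-mobility-group box and are made in endothelial cells, the cells that line blood and lymph vessels. Sox17 is known for its part in arterial fate, where it acts beside Notch signalling. Sox18 is known for switching on Prox1 when lymphatic endothelium forms and is mutated in ragged mice, and Sox7 is known for its part in early vessel growth and in the step from haemogenic endothelium to blood. The 3 factors can stand in for each other in part, and VEGF signalling acts upstream of them.

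The ATAC-seq libraries came from nuclei of E12 brain, heart and trunk, and, at P6 and in adults of 2 months, of kidney, liver, lung, heart, retina and brain. Nuclei are labelled endothelial (37 libraries) or input, meaning the whole tissue (29 libraries), and every mouse of both kinds had received tamoxifen, which switches on a GFP reporter in vessels: dams at E10.5, pups at P1 and P3, adults 7 days before collection. The driver of the reporter, the strain and whether animals were pooled are not given in the sources used here, and the protocol text puts the young postnatal collection at P7 where the labels say P6. The 5 single-cell libraries, from CD31-selected cells of whole brain at E9.5, E12.5 and E16.5 and of cortex at P8 and in adults, have no replicate, so tissue and dissociation method cannot be told apart from age across E16.5 and P8.

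Endothelial peak lists held 19464 to 120456 peaks from 10.1 to 59.1 M tags, and input lists held 25880 to 144197 peaks from 16.2 to 46.2 M tags. Input lists were the longer ones at each age, with medians of 141866 against 101233 peaks at E12, 93929.5 against 69067.5 at P6 and 48589.5 against 36755.5 in adults, so a plain count of peaks leans towards input. Peaks at Cldn5, Cdh5 and Kdr, which define endothelium, outnumbered those of input by 4.46, 4.06 and 8.08 (adjusted p of 4.64e-08, 9.21e-05 and 2.24e-07, exact stratified permutation test over 37 and 29 libraries). By the same test Flt1, also a gene of endothelium, had 7.85 more (adjusted p of 6.18e-05). Robo4, another, was not called (-0.19 peaks, adjusted p of 0.894), so this check did not hold for each such gene. From E9.5 to adult the endothelial barcodes numbered 5644, 6347, 3786, 4778 and 3154, with median depths of 4896 to 10469 UMIs. Among endothelial genes that did not select them, Ramp2 was detected in 94.4 to 99.6% of them and Cldn5 in 85.2 to 99.9%. Flt1 was detected in 67.1 to 99.7% and Emcn in 72.0 to 91.1%. Robo4 was detected in 10.8% at E9.5 and in 50.3 to 64.9% at the later ages. Between 0 and 50 barcode sequences recur between any pair of libraries. Nothing in the labels says that the libraries of a group came from separate animals, so p-values measure the spread between these libraries, which may be technical.

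Each SoxF gene had its own course over age in brain endothelium. Sox17 was at its lowest at E9.5 and at its highest in adults, Sox7 was highest at E16.5 and lower on either side of it, and Sox18 was low through embryonic life and higher after birth. The deposited name of the E16.5 library reads as E17.5, so its exact age is uncertain, and its label is used here. With 1 library per age there is no test of these courses, and the intervals below are exact 95% Poisson intervals that cover counting error only.

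Sox17 stood at 71.1 CPM (counts scaled to a common library total; interval 68.6 to 73.6) at E9.5, from 3251 UMIs. It stood at 203 CPM (199.5 to 206) at E12.5, 347 (342 to 353) at E16.5, 237 (233 to 241) at P8 and 581 (571 to 591) in adults, from 13513 to 16285 UMIs each. In order, the level was highest in adults, then at E16.5, P8, E12.5 and E9.5, and no neighbours in that order had overlapping counting intervals. The step from E9.5 to E12.5 was 2.85-fold, and 18.6% of the 9694 genes that reached 10 CPM in any library were at least 2-fold higher and 7.57% lower across the same step. From E12.5 to E16.5 it was 1.71-fold higher, with 7.8% of genes at least 2-fold higher and 6.5% lower. From P8 to adult the step was 2.45-fold, against 12.1% of genes at least 2-fold higher. From E9.5 to adult Sox17 was 8.18-fold, Sox18 5.96-fold and Sox7 2.19-fold higher, and 33.1% of genes were at least 2-fold higher and 20.6% lower over that span.

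Sox7 stood at 24.5 CPM (23.0 to 25.9) at E9.5, from 1119 UMIs, and at 100.3 CPM (98.1 to 103) at E12.5, a 4.10-fold step. It stood at 121 CPM (118 to 124) at E16.5, 93.1 (90.7 to 95.6) at P8 and 53.6 (50.7 to 56.7) in adults. Only E9.5 was lower than the adult library. P8 was 1.74-fold higher than adult, and 11% of genes were at least 2-fold lower in adults than at P8.

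Sox18 stood at 14.6 CPM (13.6 to 15.8) at E9.5, 24.7 (23.6 to 25.8) at E12.5 and 16.6 (15.4 to 17.8) at E16.5, and the intervals of E9.5 and E16.5 overlap. After birth it stood at 51.3 CPM (49.5 to 53.2) at P8 and 87.3 (83.6 to 91.2) in adults. The step from E16.5 to P8, 3.10-fold, falls where tissue and dissociation also change, and 10.1% of genes were at least 2-fold higher and 6.98% lower across it. Sox17 and Sox7 were 1.47-fold and 1.30-fold lower across that step.

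**Figure D1:**
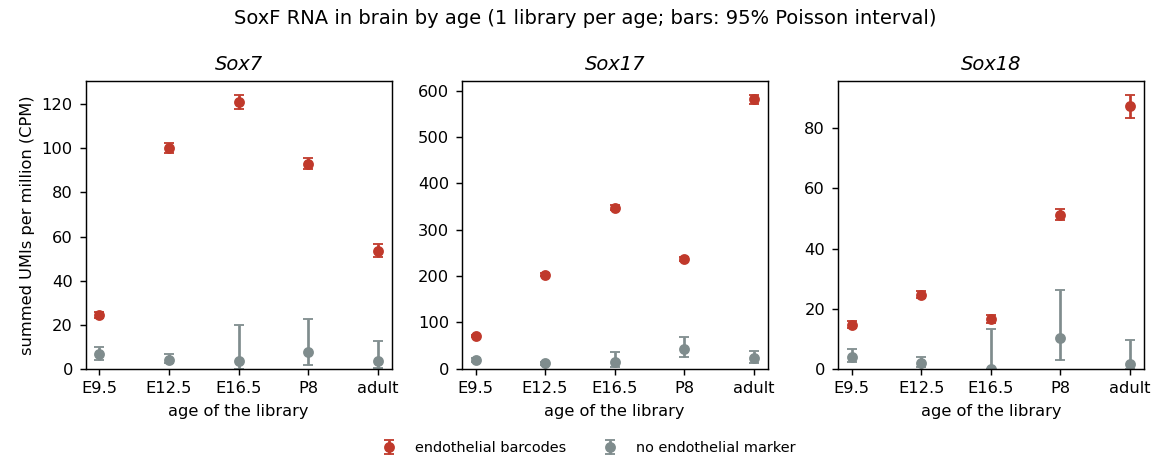
SoxF RNA in CPM from summed UMIs (vertical axes, each from 0 and with its own range) against the age of the library, for endothelial barcodes (red) and barcodes with none of the 6 endothelial markers (grey), with 95% Poisson intervals. Sox17 ends at its highest level, 581 CPM in adults, Sox7 is highest at E16.5 at 121 CPM, and Sox18 is above 50 CPM only at P8 and in adults.

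A background level was read from barcodes that passed the same filters but carried no endothelial marker; whether their SoxF UMIs came from free RNA or from the cells themselves was not tested. Barcodes with none of the 6 markers, 51 to 1118 per library and with median depths of 1247 to 6496.5 UMIs, held Sox7 at 3.45 to 7.65 CPM, Sox17 at 11.4 to 43.4 CPM and Sox18 at 0 to 10.2 CPM. After each barcode was thinned to 2000 UMIs, so that depth is equal, Sox17 was detected in 13.0, 29.0, 44.3, 33.9 and 61.4% of endothelial barcodes from E9.5 to adult, against 3.13, 2.53, 1.96, 1.96 and 3.16% of barcodes without a marker. Without thinning the Sox17 shares were 35.3, 71.9, 84.5, 73.3 and 84.2%. Thinning left out 272, 0, 0, 96 and 172 endothelial barcodes that were too shallow. Sox7 was detected in 4.88, 16.5, 19.3, 16.3 and 9.89% of thinned endothelial barcodes (16.4, 54.2, 58.3, 52.2 and 26.7% unthinned), and Sox18 in 2.89, 4.60, 3.38, 9.87 and 15.0% (10.8, 23.8, 15.3, 38.9 and 37.2% unthinned). For Sox18 at E16.5, 0 of 51 barcodes without a marker held a UMI, which allows a share of up to 5.88%, so the thinned share there does not stand above background at this depth. Without thinning, 15.3% of endothelial barcodes held one against 0 of the same 51, but median depths there were unequal, at 9017 and 5186 UMIs. Haemoglobin RNA was widespread: 57.7% of endothelial barcodes at E9.5 and 88.9% at E12.5 held at least 2 erythroid markers, against 15.8% at E16.5, 31.4% at P8 and 9.19% in adults. With haemoglobin genes taken out of the totals, Sox17 at E12.5 stood at 206 CPM and Sox7 at 102 CPM.

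The family's make-up shifted with age. UMIs of 10x 3′ libraries do not scale with transcript length, but capture can differ between genes, so the shares are compared across ages only. Sox7 gave 22.2, 30.6, 25.0, 24.4 and 7.43% of all SoxF UMIs from E9.5 to adult. Sox17 gave 64.5, 61.9, 71.6, 62.1 and 80.5%. Sox18 gave 13.3, 7.53, 3.42, 13.5 and 12.1%, with its smallest share at E16.5.

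Genes known to work with the family were read from lists by the same measure. Of 9 SoxF target genes with 10 CPM in any library, 6 were at least 2-fold higher at E12.5 than at E9.5 and 0 lower, where 18.6% of all genes were higher and 7.57% lower, with a list median of 1.32 on the log2 scale against 0.20 over all genes. The 6 include Cdh5 (208 and 520 CPM), which helped select the barcodes, and Vcam1, which was near the floor at 0.568 and 3.22 CPM. At the next step, to E16.5, the counts were 2 and 0 (7.8% and 6.5% of all genes). They were 1 and 1 at P8 (10.1% and 6.98%), where the list median was -0.13 against 0.04, and 2 and 1 in adults (12.1% and 11%). Cldn5, a tight junction gene, stood at 572 and 2129 CPM at E9.5 and E12.5, and Robo4, a guidance receptor of endothelium, at 15.3 and 112 CPM at the same ages. Dll4, the Notch ligand of arteries and sprouting cells, stood at 14.6, 62.4, 120, 80.2 and 34.3 CPM over the 5 ages. Prox1, the lymphatic regulator that Sox18 acts on, was at 7.35 CPM or less at each age.

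Of 15 Notch and arterial genes that reached 10 CPM, 8 were at least 2-fold higher and 0 lower at E12.5 than at E9.5, where 18.6% of all genes were higher and 7.57% lower. At the next step, to E16.5, 3 were higher and 0 lower (7.8% and 6.5% of all genes), at P8 1 was higher and 5 lower (10.1% and 6.98%), and in adults 4 were higher and 2 lower (12.1% and 11%). Of 24 other endothelial transcription factors, 10 were higher and 2 lower at the first of these steps, 5 and 0 at the next, 0 and 1 at P8 and 5 and 2 in adults. Of 6 VEGF receptors and partners, the counts were 0 and 0, 2 and 0, 0 and 0, and 1 and 1. Dll4 and Notch1 are on both the target and the Notch list, Nrp1 is on both the Notch and the VEGF list, and all lists share libraries with the values of the SoxF genes above. Cdh5 on the target list and Kdr on the VEGF list also helped select the barcodes, so their levels are not independent of that selection.

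The SoxF genes were also compared between endothelial barcodes that carry arterial markers and the rest. An arterial-marker barcode had, after thinning, at least 2 of Gja4, Gja5, Sema3g, Bmx, Efnb2, Hey1, Dll4, Unc5b, Vegfc and Gkn3 and fewer venous than arterial markers. This is a range of marker counts and not a cell type: between 239 and 458 of the 697 to 912 arterial-marker barcodes in each library held exactly 2, and 18.9 to 27.2% of all thinned barcodes held exactly 1. The median arterial-marker barcode held 0 or 1 venous and 0 tip markers.

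All 3 genes were higher in arterial-marker barcodes in 5 of 5 libraries. Sox17 stood at 163 CPM in arterial-marker and 61.4 CPM in the other endothelial barcodes at E9.5, 427 and 161 at E12.5, 724 and 268 at E16.5, 574 and 191 at P8 and 861 and 454 in adults. The mean log2 ratio was 1.35 ± 0.25 (SD, n = 5 libraries), or 2.55-fold, with an exact two-sided sign-flip permutation p of 0.063, the smallest that 5 libraries allow. Of all 9694 genes, 13.7% were higher and 7.95% lower in arterial-marker barcodes in all 5 libraries, and 3.08% were so with a mean of at least 2-fold, as was Sox17.

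Sox7 stood at 48.3 CPM in arterial-marker and 22.0 CPM in the other barcodes at E9.5 and at 238 and 76.3 CPM at E12.5. The gap was narrower later, with 150.4 and 105 CPM at E16.5, 112 and 91.9 at P8 and 63.1 and 50.3 in adults. The mean log2 ratio was 0.78 ± 0.59 (SD, n = 5 libraries, exact sign-flip permutation p of 0.063), with single ratios of 1.14, 1.65, 0.52, 0.29 and 0.33. At P8 and in adults the counting intervals of both classes overlapped for Sox7, as the plot by marker class shows.

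Sox18 stood at 20.8 CPM in arterial-marker and 13.9 CPM in the other barcodes at E9.5, 38.9 and 20.9 at E12.5, 36.0 and 12.6 at E16.5, 78.9 and 46.9 at P8 and 111 and 77.5 in adults. Its mean log2 ratio was 0.86 ± 0.40 (SD, n = 5 libraries, exact sign-flip permutation p of 0.063), largest at E16.5 at 1.51. Venous-marker barcodes, defined in mirror image, held Sox17 at 45.9, 164, 249, 177 and 422 CPM over the 5 ages. Barcodes of neither class stood at 63.9, 158, 299, 206 and 465 CPM, so the venous-marker class was the lowest for Sox17 in each library but that of E12.5.

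**Figure D2:**
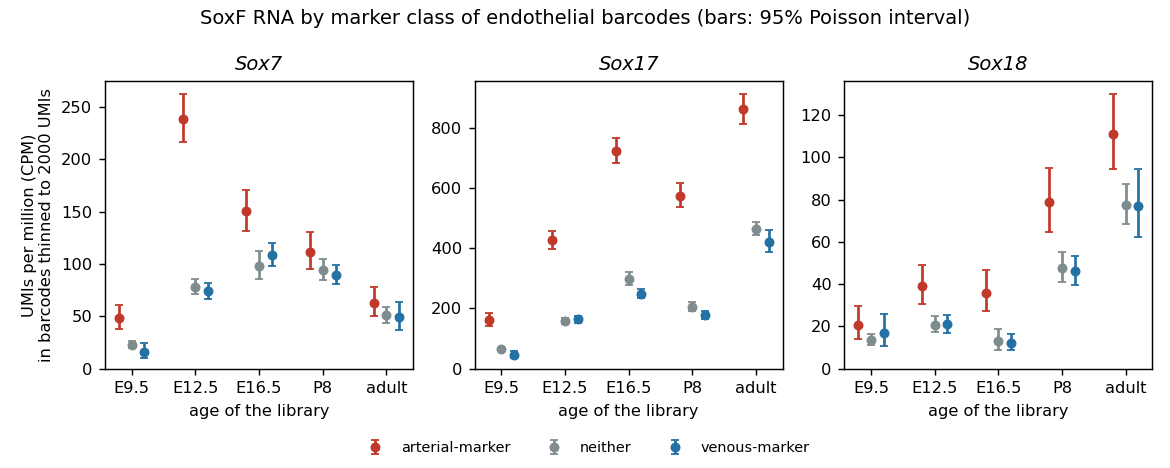
SoxF RNA in CPM from summed UMIs (vertical axes, each from 0) in endothelial barcodes thinned to 2000 UMIs, by age of the library and marker class (red arterial-marker, grey neither, blue venous-marker), with 95% Poisson intervals. The arterial-marker class is the highest of the 3 in each panel and library, with an interval that clears both other classes for Sox17 at all 5 ages, for Sox7 up to E16.5 and for Sox18 at E12.5, E16.5 and P8.

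Barcodes with at least 2 markers of tip cells, which lead vessel sprouts, or of cycling cells were set beside all thinned endothelial barcodes, and levels here are all from thinned barcodes. For Sox17, tip-marker barcodes stood at 140 CPM (90.9 to 207, 89 barcodes) at E9.5, above the 75.5 CPM of all thinned endothelial barcodes. At E12.5 they stood at 194 CPM (166 to 225, 449 barcodes), next to 199 CPM over all, at E16.5 at 253 CPM (211 to 301, 247 barcodes), below 362 CPM, and at P8 at 122 CPM (99.4 to 147, 432 barcodes), below 248 CPM. The Sox7 interval in them lay above the level over all at P8 (103 to 151 against 94.8 CPM) and held it at E9.5 (12.4 to 73.4 against 25.7), E12.5 (96.6 to 143 against 99.6) and E16.5 (83.9 to 145 against 114). Cycling-marker barcodes, which numbered 2935, 2006, 268 and 227 from E9.5 to P8, held Sox17 below the level over all in each of these 4 libraries. They stood at 66.4 CPM (60.0 to 73.4) against 75.5, at 152 (140 to 164) against 199, at 146 (115 to 182) against 362 and at 172 (136 to 214) against 248. Sox18 was also lower in each, at 12.8, 17.9, 11.2 and 19.8 CPM against 14.9, 23.5, 17.4 and 51.7, with intervals that hold the level over all at E9.5 and E16.5. Sox7 stood at 26.9 CPM (22.9 to 31.5) at E9.5, next to 25.7 over all, and was lower at the other ages, at 63.6, 69.0 and 63.9 CPM against 99.6, 114 and 94.8. These classes overlap with those above, and their differences were not tested over libraries.

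Few barcodes held UMIs of more than 1 SoxF gene at equal depth. After thinning, 80.5, 57.9, 44.3, 50.1 and 29.8% of endothelial barcodes held none, from E9.5 to adult. Those with all 3 numbered 0 of 5372 at E9.5, which allows up to 0.0558%, then 28 of 6347, 13 of 3786, 37 of 4682 and 30 of 2982. For each pair the share of barcodes with both was set against the product of the single shares. From E9.5 to adult the ratio of share to product was 1.09, 1.18, 1.12, 0.980 and 0.977 for Sox7 with Sox17, and 1.14, 1.30, 1.07, 1.16 and 1.05 for Sox17 with Sox18. For Sox7 with Sox18 it was 1.19, 1.39, 0.769, 1.05 and 1.02, from 9 to 79 barcodes with both. The shares themselves ran from 0.689% to 9.56% for Sox7 with Sox17 and from 0.428% to 9.69% for Sox17 with Sox18. All these ratios are descriptions with no test.

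Over the 15 profiles of library by marker class, the genes whose log2 level ran most like Sox17, among 8275 genes with a mean of at least 10 CPM that are not class markers, were Id3, Trim47, Pbxip1, Fuca2 and Slc9a3r2 (Pearson r of 0.95 to 0.967). For Sox18 they were Ece1, Ltbp4, Lysmd2, Rcor3 and Uaca (r of 0.976 to 0.963), and for Sox7 they were Tm2d2, Txndc15, Jkamp, Zdhhc1 and Arpc1b (r of 0.946 to 0.935). Among themselves Sox17 ran with Sox18 at r of 0.702, Sox17 with Sox7 at 0.637 and Sox7 with Sox18 at 0.169. The profiles share 5 libraries in sets of 3, so these are descriptions.

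The genes lie on 3 chromosomes of the mouse genome (mm10). Sox7 spans chr14:63943706-63950732, Sox17 chr1:4490928-4497426 and Sox18 chr2:181669837-181671640. The windows differ in their neighbours: that of Sox17 holds 0 other protein-coding genes, that of Sox7 holds 3 and that of Sox18 holds 6. A peak in the windows of Sox7 and Sox18 may therefore lie at a start site of another gene. Distances below run along the direction of transcription, minus being upstream. The gene table used holds no strand, so it was taken from the standard mouse annotation: plus for Sox7, minus for Sox17 and Sox18. Start sites and the terms upstream and downstream rest on it. The gene table also holds no exons, so a region inside a gene is not called exonic or intronic.

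Endothelial nuclei had more peaks at Sox7 and Sox17 than input nuclei, against the run of the genome. At Sox7 the 12 adult endothelial libraries held 6 to 12 peaks (median 9) and the 10 adult inputs 0 to 10 (median 5). At P6 the ranges were 6 to 17 (median 12.5, 14 libraries) and 1 to 13 (median 7.5, 16 libraries), and at E12 they were 6 to 15 (median 12, 11 libraries) and 2, 6 and 11. The ranges overlap at each age, while within organ and age the endothelial mean was the higher in 15 of 15 comparisons. Averaged over those comparisons, each counted equally, the difference was 4.36 peaks (means of 10.97 ± 3.39 and 6.41 ± 3.75, SD, n = 37 and 29; exact stratified permutation p of 7.04e-08, adjusted p of 1.35e-06 over all genes). Of all 21887 protein-coding genes, 3.5% had more peaks in endothelial nuclei at an exact p under 0.05 and 54.7% had fewer. Fewer endothelial nuclei in the input and less open chromatin per nucleus cannot be told apart in these bulk libraries.

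Sox17 also had more peaks in endothelial nuclei. Adult endothelial libraries held 2 to 9 peaks (median 6.5) and adult inputs 0 to 4 (median 1), with 0 in 3 of the inputs. At P6 the values were 4 to 12 (median 8) and 1 to 9 (median 5), and at E12 they were 5 to 14 (median 11) and 6, 7 and 8. The difference over all ages was 3.90 peaks (8.24 ± 2.93 and 4.10 ± 2.98, SD, n = 37 and 29; exact permutation p of 2.00e-08, adjusted p of 5.43e-07), with the endothelial mean higher in 14 of 15 comparisons and equal in E12 heart. Within adults the difference was 4.58 peaks (exact permutation p of 0.000343, adjusted p of 0.0177, n = 12 and 10), where 0.69% of all genes had more peaks in endothelial nuclei and 41.1% fewer. At P6 it was 3.39 (exact permutation p of 0.000333, n = 14 and 16), against 3.38% of all genes with more peaks and 38.6% with fewer.

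At Sox18 the contrast was small in the plain counts. Adult endothelial libraries held 6 to 10 peaks (median 8) and adult inputs 2 to 13 (median 6), and P6 libraries 6 to 14 (median 10) and 4 to 11 (median 10). At E12 they held 9 to 15 (median 13) and 8, 11 and 12. Over all ages the difference was 1.21 peaks (10.1 ± 2.57 and 8.21 ± 3.05, SD, n = 37 and 29; exact permutation p of 0.0293, adjusted p of 0.0542), higher in 9 and lower in 5 of 15 comparisons. It did not hold within each kind of read processing that the file headers name: the mean difference was 3.50 and 1.17 peaks in 2 kinds, and -0.29 and -0.92 in the others, of which the last covers heart alone. The call was lost when any 1 of 4 libraries was left out, adult brain endothelial 2, E12 brain input 2, adult retina input 1 or E12 trunk input 1 (exact permutation p of 0.0528 to 0.101).

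For Sox7 and Sox17 the mean difference was positive within each of the 4 kinds of read processing, at 2.42 to 5.90 and 2.83 to 4.89 peaks, though at Sox7 1 of the 4 comparisons within the kind used for most lung and retina libraries was lower. In adults alone Sox7 differed by 2.92 peaks (exact permutation p of 0.00883, adjusted p of 0.0447, n = 12 and 10), and by 2.17 with libraries compared only within a kind of read processing (exact permutation p of 0.0514). At P6 it differed by 5.14 (exact permutation p of 1.87e-05, n = 14 and 16). At E12, with 3 inputs, Sox7 differed by 5.69 peaks (exact permutation p of 0.02, n = 11 and 3, 2.41% of all genes higher and 15.4% lower), and Sox17 and Sox18 by 3.56 and 2.64 (exact permutation p of 0.05 for each, not under the threshold). None of the 3 passed there after adjustment over all genes (adjusted p of 0.155, 0.244 and 0.244), and the Sox7 call was lost when any 1 of the 3 inputs was left out.

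When only the 19000 strongest peaks of each list were kept, which makes the lists equal in length, Sox18 had more peaks in endothelial nuclei in adults (3.17, exact permutation p of 0.000171, n = 12 and 10) and at P6 (3.72, exact permutation p of 1.39e-06, n = 14 and 16). Of all genes, 10.8% and 16.5% had more and 9.56% and 15% had fewer in that setting. Sox7 and Sox17 also had more peaks in endothelial nuclei at each age (exact permutation p of 4.17e-06 to 0.02), where at E12 7.33% of genes had more and 6.09% fewer, and over all ages 19.8% had more and 23.8% fewer. Over all ages the differences in that setting were 3.79 peaks at Sox7, 3.19 at Sox18 and 2.15 at Sox17, so Sox18 did not stand below Sox17 there.

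**Figure D3:**
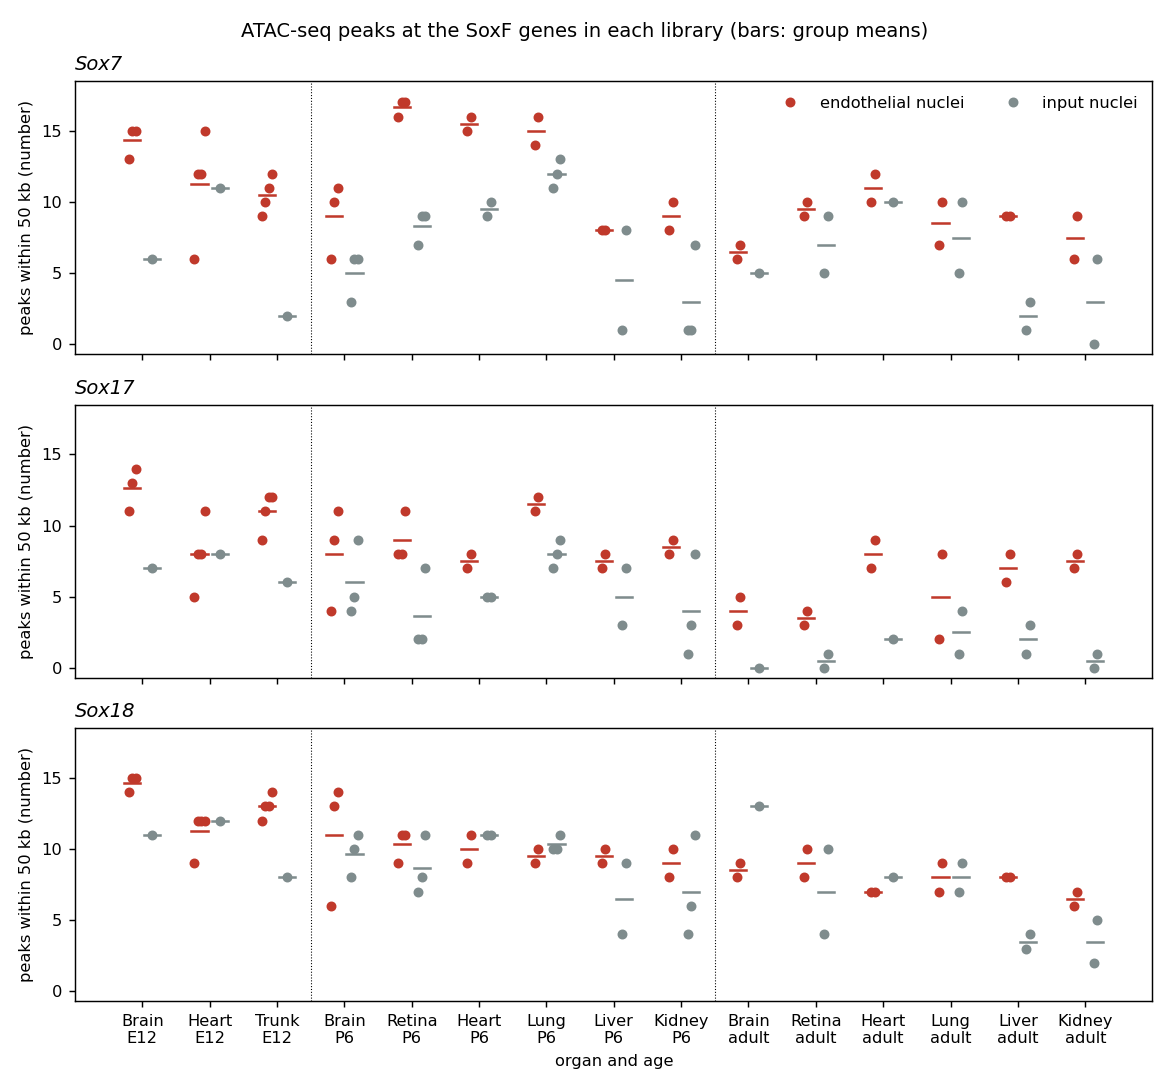
Number of ATAC-seq peaks within 50 kb of each SoxF gene (vertical axes, 0 to 18) in each library, by organ and age, for endothelial (red) and input (grey) nuclei; bars are group means. At Sox17 adult inputs sit at 0 to 4 peaks and adult endothelial libraries at 2 to 9, while at Sox18 both kinds of nuclei share much of their range.

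Other genes of the pathway were scored in the same way over all ages, by the same exact p under 0.05 without adjustment. Beside the counts below, 3.5% of all genes had more peaks in endothelial nuclei and 54.7% fewer. Of 10 SoxF target genes, 6 had more peaks in endothelial nuclei (Cdh5, Cldn5, Tek, Rasip1, Dll4 and Ephb4) and 1, Prox1, had fewer, with a list median of 1.38 peaks against -1.05 over all genes. Of 24 other endothelial transcription factors, 9 had more and 5 fewer, with Erg among those with more at 4.67 peaks. Of 17 other Sox genes, 1 had more, Sox13, and 10 had fewer, a share near that of all genes. Of 16 Notch and arterial genes 4 had more and 4 fewer, and of 7 VEGF receptors and partners 3 had more and 3 fewer. Cdh5, Cldn5 and Robo4 on the target list and Kdr and Flt1 on the VEGF list served above to check the endothelial libraries. Their part in these counts is therefore no separate result. Dll4 and Notch1 are on both the target and the Notch list, and Nrp1 is on both the Notch and the VEGF list. The counts also depend on list length. With the 19000 strongest peaks of each list, where 19.8% of all genes had more and 23.8% fewer, the counts with more and fewer were 9 and 0 for the SoxF targets, 16 and 2 for the transcription factors, 10 and 1 for the Notch and arterial genes, 5 and 2 for the VEGF genes and 2 and 2 for the other Sox genes. Prox1 turned from -2.94 to 0.49 peaks and Nrp1 from -2.51 to 2.22, each called in both settings, as did Klf4 (-0.79 and 0.79) and Nrp2.

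Region by region, 69 of the 92 SoxF regions could be tested, having a peak in at least 3 libraries and missing in at least 3. A peak was present in more endothelial than input libraries at 20 of them and in fewer at 2 (adjusted p under 0.05, exact stratified test of presence with Benjamini-Hochberg adjustment over 273404 regions). Over all regions 7.73% were called in the first direction and 17.9% in the second. Of the 20, 8 lay at Sox7, 8 at Sox17 and 4 at Sox18, and both that went the other way lay in the Sox18 window near other genes, at the ends of Tcea2 and Oprl1. With the 19000 strongest peaks of each list, 14 regions were called higher and 0 lower. The share of all regions called in that setting is not given here, so this count has no background beside it.

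At Sox7, 3 distal regions had a peak in 37 of 37 endothelial libraries. They lie 44.0 kb and 35.0 kb upstream, inside the Pinx1 gene, at chr14:63899233-63900121 and chr14:63908137-63909242, and 14.3 kb downstream of the start, past the end of the gene, at chr14:63957309-63958637. In input they had a peak in 14, 13 and 13 of 29 libraries (adjusted p of 5.74e-05, 5.20e-05 and 6.06e-05). The inputs with a peak were uneven over organs: the region 35.0 kb upstream was found in 4 of 4 heart and 5 of 5 lung inputs, and in 0 of 5 brain and 0 of 5 retina inputs. The start site of Sox7 itself held a peak in 37 of 37 endothelial and 26 of 29 input libraries, which was not a called difference (adjusted p of 0.114). A small region 1.49 kb inside the gene was found in 10 endothelial and 0 input libraries (adjusted p of 0.00937).

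At Sox17 the region 26.1 kb downstream of the start, at chr1:4470719-4471897, had a peak in 34 of 37 endothelial and 9 of 29 input libraries (adjusted p of 3.57e-05). The start site, at chr1:4496258-4497937, had one in 34 and 15 libraries (adjusted p of 0.00624), and the region 4.69 kb inside the gene in 37 and 24 (adjusted p of 0.0758). A region 36.7 kb upstream, at chr1:4533506-4534670, was seen in 15 endothelial and 0 input libraries (adjusted p of 0.00666), and these were uneven over organs, with 7 of 8 heart, 4 of 4 trunk, 3 of 8 brain and 1 of 5 retina libraries, and 0 of 12 from lung, liver and kidney. By age it was found in 10 of 11 E12, 3 of 14 P6 and 2 of 12 adult endothelial libraries. Trunk was sampled at E12 only, and lung, liver and kidney only at the later ages, so these organ counts mix organ with age. The region 47.0 kb upstream, at chr1:4543814-4545068, was open in 31 of 33 endothelial libraries outside the liver and in 0 of 4 from liver, a pattern picked after its values were seen and not tested.

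At Sox18 the 4 regions with a peak in more endothelial libraries lie close to the gene. The start region, at chr2:181670174-181671873, had a peak in 37 of 37 endothelial and 17 of 29 input libraries (adjusted p of 0.0022). Upstream by 4.04 kb and 5.92 kb, peaks were found in 37 and 35 endothelial against 19 and 8 input libraries (adjusted p of 0.00778 and 5.41e-06), and 8.25 kb downstream of the start in 36 against 10 (adjusted p of 9.89e-06). Among inputs the region 5.92 kb upstream was found in 5 of 5 lung and 3 of 4 heart libraries and in 0 of 20 of the rest. The regions 12 kb downstream, at an end of Gm29797, and 22.4 kb upstream, at Rgs19, had a peak in 37 of 37 endothelial libraries and in 29 and 26 of 29 inputs as well.

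**Figure D4:**
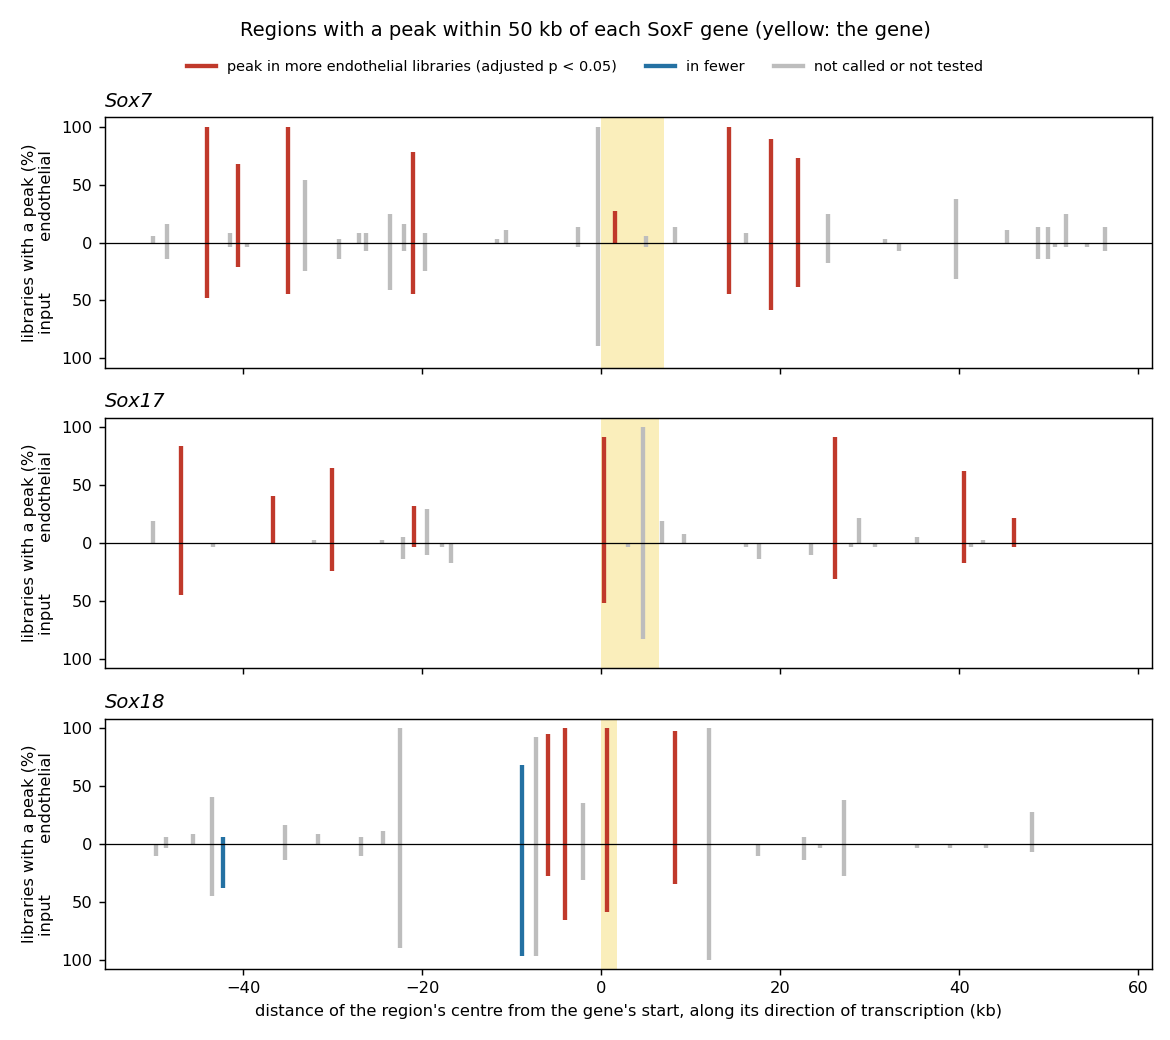
Share of endothelial libraries (upward bars, %) and input libraries (downward bars, %) with a peak in each of the 92 regions, against distance from the start of the gene in kb; the gene is shaded yellow. Red marks the 20 regions present in more endothelial libraries, blue the 2 present in fewer, and grey those not called or not tested. The red regions run from 44.0 kb upstream to 22.0 kb downstream of the start at Sox7 and from 47.0 kb upstream to 46.1 kb downstream at Sox17, and sit within 8.25 kb of the start at Sox18.

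**Figure D5:**
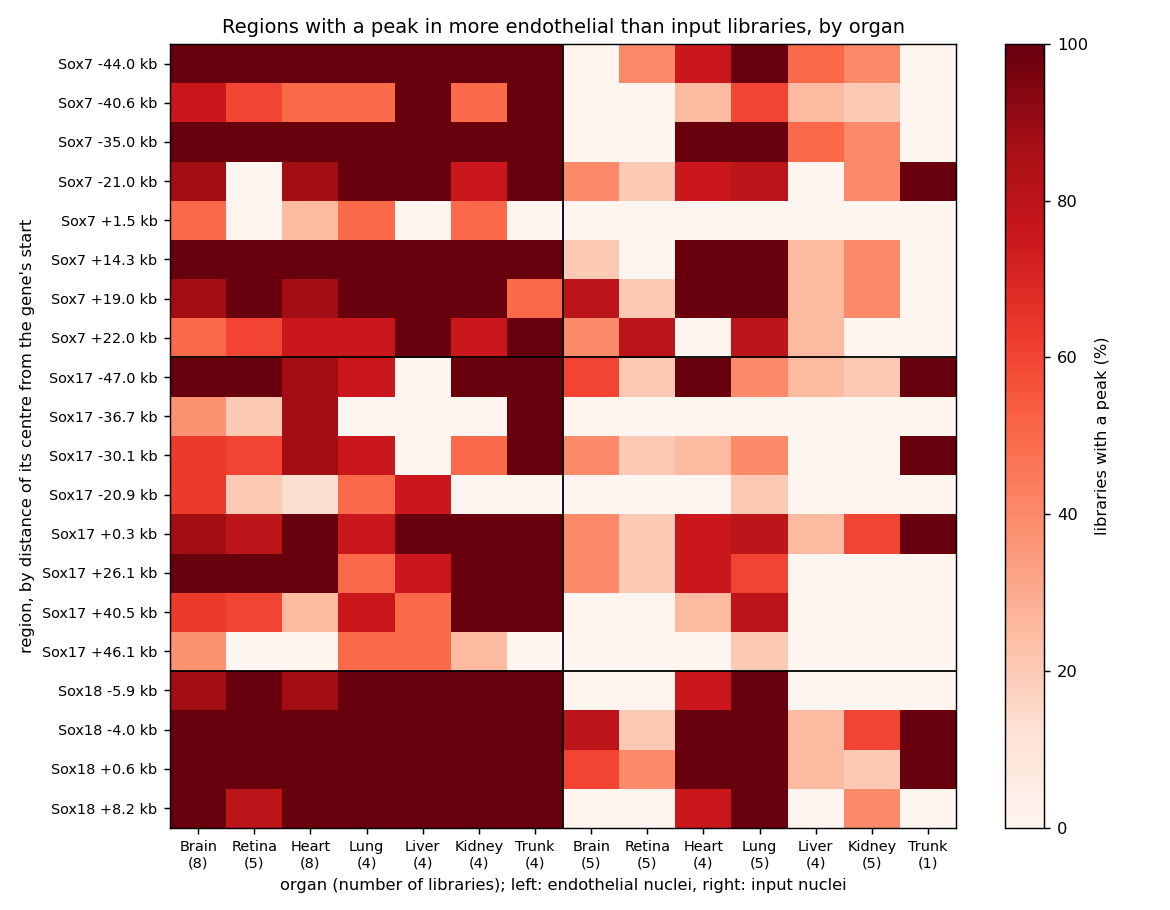
Share of libraries with a peak (colour, 0 to 100%) at each of the 20 regions present in more endothelial libraries, named by gene and distance from its start, in each organ; endothelial columns are left of the line and input columns right, with the number of libraries below. Heart and lung inputs are the darkest input columns at Sox7 and Sox18, and the Sox17 region 47.0 kb upstream is blank in liver endothelium.

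The start sites ranked differently within the lists. The peak within 1 kb of the Sox7 start stood at a median percentile of 80.3 by the authors' −log10 q-value within its own list in the 11 E12 endothelial libraries, 81.2 at P6 and 74.7 in adults. That of Sox18 stood at 69.5, 80.4 and 68.9, and that of Sox17 at 56.6, 54.2 and 29.6, so the Sox17 start was a weaker peak than many in the same list. In adults it was found at all in 9 of 12 endothelial and 1 of 10 input libraries, against 12 of 12 and 9 of 10 for Sox7, and 12 of 12 and 3 of 10 for Sox18.

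Adult endothelial libraries had fewer peaks at all 3 genes than P6 libraries, as did most genes. The differences, averaged over organs with each counted equally, were -3.53 peaks at Sox7 (8.67 ± 1.83 and 12.3 ± 3.95, SD, n = 12 and 14; exact permutation p of 0.000741), -2.83 at Sox17 (5.83 ± 2.37 and 8.64 ± 2.098, exact permutation p of 0.00404) and -2.06 at Sox18 (7.83 ± 1.11 and 10.0 ± 2.00, exact permutation p of 0.00394). At the same threshold, 75.7% of all genes had fewer peaks in adults and 0.114% had more, and adult lists are shorter. With the 19000 strongest peaks of each list the differences turned to 0.69, 0.25 and 0.19 (exact permutation p of 0.204, 0.317 and 0.541), and 9.96% of genes had more and 6.56% fewer, so the direction did not hold at equal list length.

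At single regions, 3 of 36 tested were present in fewer adult than P6 endothelial libraries and 0 in more, where 7.51% and 0.0113% of all 105761 regions were so called, so the count was near the share of all regions. All 3 lie at Sox7: 40.6 kb upstream (2 of 12 adult and 13 of 14 P6 libraries, adjusted p of 0.0144), 33.1 kb upstream (0 and 9, adjusted p of 0.0239) and 22.0 kb downstream (4 and 12, adjusted p of 0.0383). The number called was 5 without P6 brain 1, P6 brain 2 or adult lung 1, and 0 with the 19000 strongest peaks. No SoxF region was called between these ages at Sox17 or Sox18, with 11 and 7 tested, which does not show that these regions were alike at both ages. Some regions were seen in E12 only: the Sox17 region 28.8 kb downstream of the start had a peak in 8 of 11 E12 endothelial libraries and in 0 of 26 later ones and 0 inputs. E12 was not tested against later ages, and E12 endothelial lists were the longest (median of 101233 peaks against 69067.5 at P6 and 36755.5 in adults).

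Across organs, the group means of Sox7 at P6 ran from 8 to 16.7 peaks, and those of Sox17 from 7.5 to 11.5 and of Sox18 from 9 to 11. At P6 the Sox7 window held 17, 16 and 17 peaks in retina endothelium, 16 and 15 in heart and 16 and 14 in lung. It held 6, 11 and 10 in brain, 10 and 8 in kidney and 8 and 8 in liver. With the 19000 strongest peaks the P6 retina held 2 to 6, heart 6 to 7 and brain 2 to 6, so the lead of retina was not there at equal list length. In adults Sox7 ran from 6 and 7 in brain to 10 and 12 in heart, and Sox17 from 3 and 4 in retina and 3 and 5 in brain to 7 and 9 in heart. At Sox18 adult organs lay within 6 to 10 peaks.

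Brain and retina, whose endothelium forms a blood-neural barrier, were set against heart, kidney, liver and lung at P6 and in adults. Of 36 SoxF regions tested, 3 had a peak in more brain and retina libraries and 1 in fewer, where 14.3% and 3.99% of all regions were so called. The ones with more were at Sox7, 48.8 and 50.0 kb downstream of the start at an end of Rp1l1 (5 of 5 retina and 0 of 5 brain libraries at these ages, adjusted p of 0.031 for each), and 8.81 kb upstream of Sox18 at an end of Tcea2 (adjusted p of 0.0421). Rp1l1 is a photoreceptor gene, and both regions were also open in 4 of 5 retina inputs. Their part in the endothelial result was not tested. The region with fewer, 21.0 kb upstream of Sox7, was found in 4 of 10 barrier and 15 of 16 other libraries (adjusted p of 0.0407), with 0 of 5 from retina. All 4 calls were lost when any 1 of the 5 retina libraries was left out. Read processing, as the file headers name it, went largely with organ: all 8 heart endothelial libraries were of 1 kind, all from kidney, liver and trunk of another, and all from lung and retina of yet another kind that was also used for 2 of 8 brain libraries, the other 6 being of a kind of their own. Organ and processing cannot be told apart in most of this comparison.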

How the data were processed

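The authors' deposited peak tables hold, per the file headers, broad peaks called with MACS 2.1.2 in each library without a control, with reads shifted by -100 and extended to 200 bases and a deposited −log10 q-value per peak, used to rank peaks. The authors' fold enrichment (pileup relative to nearby background within that library) broke ties in rank, and the deposited pileup signal, which is not scaled between libraries, was not compared. Bowtie2, SAMtools 1.13 and Picard are named in the submitters' processing notes, with build mm10. The deposited single-cell matrices hold raw UMI counts, for which the notes name Cell Ranger. The E16.5 matrix, without a gene table of its own, was read in the gene order of the other 4. Peaks were counted within 50 kb of 21887 RefSeq genes (GRCm38.p6) and merged over libraries into regions. Counts were compared by exact permutation within organ and age, and presence by an exact conditional test, with Benjamini-Hochberg adjustment over all genes or regions (Python 3.11.15, numpy 2.4.6, pandas 2.3.3, scipy 1.17.1). The scripts were tested on simulated data, where the region test recovered 0 of 200 changed regions for adult against P6 and 93 of 200 for brain and retina. Single-cell levels are CPM from summed UMIs, and class comparisons used barcodes thinned to 2000 UMIs. Doublets were not called, and barcodes with markers of other classes were left out as an alternative. The genes named are the 3 members, the lists' members, and the 5 genes most like each. The members and lists were chosen with earlier results of these data known. The bulk RNA-seq libraries were not used here, since their transcript identifiers could not be paired with genes. No reference sequence of these genes was used.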

Additional observations from a re-analysis of the deposited data

Results flagged for a closer look

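At Sox18 the lowest of the 4 endothelial libraries of E12 heart stood apart from the others, with 9 peaks in the window against 12, 12 and 12. Its list held 39096 peaks from 10.1 M tags, the fewest of the E12 endothelial libraries on both counts. The same library was also the lowest at Sox7 (6 against 12, 12 and 15) and at Sox17 (5 against 8, 8 and 11), without a flag there. In all 6 such tests of gap over range were made, 3 genes in 2 groups of 4 libraries. With the other values tied at 12, any value apart from them would be flagged. The usual chance rate of about 1 in 20 therefore does not apply to this flag.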

How the results depend on the processing

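Of the alternatives, the 19000 strongest peaks of each list moved most: the adult minus P6 differences turned from negative to 0.69 (Sox7), 0.25 (Sox17) and 0.19 (Sox18), the endothelial minus input difference passed the threshold for Sox18 in adults (3.17), at P6 (3.72) and at E12 (2.19) and for Sox17 at E12 (1.92), and called regions numbered 14 for endothelial against input, 0 for adult against P6 and 8 for brain and retina. The shares of all regions called with the 19000 strongest peaks are not given here, nor is the direction of the 8 for brain and retina. With a 10 kb window Sox18 passed in adults (2.08), at P6 (1.61) and at E12 (2.25) and Sox17 at E12 (1.0), while Sox7 in adult against P6 no longer did (-0.64). With a −log10 q of at least 5, Sox18 at P6 (2.08) and Sox17 at E12 (6.08) passed, Sox18 in adult against P6 no longer did (-1.14), and 1 region was called there; with peaks covering at least 50% of a region 0 were called there, and with no filter on regions 0 for brain and retina. For peak counts, the 10 kb window and the q-value cut were run on the 3 members only. Those passes therefore have no share of all genes beside them. Strata split by read processing gave 2.17 for Sox7 in adults. Correlations of deviations between same-numbered libraries ran from -0.28 to 0.22, and so few libraries per group cannot show whether these pair. With the replicate block, Sox18 over all ages (1.08, exact permutation p of 0.0871) and Sox7 at E12 (6.0, exact permutation p of 0.25) were no longer past the threshold. Leaving out 1 library gave 0.93 to 1.61 for Sox18 over all ages, 4.29 to 8.42 for Sox7, 2.5 to 5.33 for Sox17 and 1.46 to 4.33 for Sox18 at E12, 2 to 5 regions for adult against P6 and 0 to 4 for brain and retina. The cause of these changes was not tested. With median-ratio factors the log2 age steps were 1.81 (E12.5 against E9.5) and -0.45 (P8 against E16.5) for Sox7, 1.28, -0.62 and 1.21 (adult against P8) for Sox17, and 0.52 and 0.68 (adult against P8) for Sox18. Without barcodes carrying markers of another class they were 1.85 and 0.43 (E16.5 against E12.5) for Sox7 and 0.74 and -0.51 for Sox17, and, in an alternative chosen after seeing the data, with erythroid markers not counted, -0.49 and 1.25 for Sox17. No age step changed sign, and the arterial-marker ratios kept their direction under each alternative run. Depth and the small number of barcodes without a marker limit the single-cell shares, as for thinned Sox18 at E16.5. The planned sequence features were not run.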

Other observations

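Other Sox genes of the brain endothelial barcodes followed courses of their own, given here as values without a test. Sox4, a SoxC factor of progenitor cells, stood at 211, 236, 349.9, 255 and 28.9 CPM from E9.5 to adult, and Sox11, of the same group, at 114, 115, 44.3, 8.34 and 0.129 CPM. Sox13, a SoxD factor, stood at 13.6, 25.0, 33.2, 45.7 and 112 CPM. In the plain counts it was the 1 gene of 17 other Sox genes with more peaks in endothelial than input nuclei (2.53, exact permutation p adjusted over all genes of 0.0357). Of all genes, 3.5% had more at an exact p under 0.05. With the 19000 strongest peaks of each list 2 had more, Sox13 (1.72) and Sox4 (0.49), and 2 had fewer, beside 19.8% and 23.8% of all genes.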
